A study of Mus musculus with 4 samples.

Results

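Cells sorted as LSK from a library labelled Mll3/4 deleted were compared with LSK cells from a library labelled control. LSK cells are the lineage-negative, Sca1-positive, Kit-positive fraction of mouse bone marrow, which holds blood stem cells and early progenitors. A gene was included when it reached 20 CPM in at least 1 of both libraries. CPM, the usual scaled count of sequencing, gives a gene's unique molecular identifiers (UMIs, 1 per captured RNA molecule) for each 1000000 UMIs of the library. That left 6683 of the 32285 genes in the matrices. The last gene inside that minimum was Ccnc, at 20.003 CPM in its higher library, and the first one outside it was Eid2, at 19.995 CPM.

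Mll3 and Mll4, the products of Kmt2c and Kmt2d, are the large catalytic subunits of related COMPASS-like complexes that place a single methyl group on lysine 4 of histone H3 at enhancers. Enhancers of this kind control many of the genes that set a blood cell's lineage. In the bone marrow, stem cells give rise to myeloid cells, megakaryocytes and red cells, and through lymphoid-primed progenitors to B cells, in which EBF1 and PAX5 switch on the genes of the pre-B-cell receptor and RAG1 and RAG2 cut the immunoglobulin genes. The series' title poses the question of how Mll3 and Mll4 share roles in stem cell renewal, myeloid identity and B-cell priming.

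Each of the 2 libraries compared held CD45.2-positive bone marrow LSK cells taken 10 weeks after transplantation. The 2 single-deletion libraries, labelled Mll3 deleted and Mll4 deleted, were prepared in the same way and serve here as side values. The labels do not give the alleles, the Cre driver, the recipients, the age of the donors or the number of mice pooled in a library. There was 1 library per genotype, so differences between libraries could not be set against a spread between mice, nothing was tested, and the library and the genotype cannot be told apart. Intervals in parentheses are exact, at the 95% level, and cover counting error only.

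The control library gave 7274 cells and 119328763 UMIs, and the Mll3/4-labelled library 4748 cells and 50792614 UMIs, with medians of 14454 and 8920 UMIs per cell. They shared 11 cell barcodes. Of the markers of the sort, Kit was at 215 CPM in the control and 246 CPM in the Mll3/4-labelled library, and Ly6a, which encodes Sca1, at 93.4 and 255 CPM. The lineage markers Cd3e, Ly6g and Itgam were at or below 1 CPM in the Mll3/4-labelled library. Messages of B-lineage cells went against the label of an early progenitor sort: Cd79a, a chain of the B-cell receptor, had a UMI in 99.6% of Mll3/4-labelled cells. The antibodies of the lineage mix are not given in the labels. The libraries are therefore named by their labels below.

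Kmt2c (chr5:25271798-25498783, minus strand, GRCm38) was at 68.9 CPM in the control and 42.3 CPM in the Mll3/4-labelled library, with 35.3 and 61.3 CPM in the libraries labelled for Mll3 and Mll4 alone. The Mll3/4-labelled level was 1.63-fold (1.55 to 1.71) lower than the control. Kmt2d (chr15:98831669-98871204, minus strand) was at 24.6, 25.4, 21.6 and 22.6 CPM in the same order, so it did not separate the 2 libraries whose labels name Mll4. Counts at the 3′ end of a message can miss a deletion placed elsewhere in the gene, and the deleted part is not given in the labels. Of the 9 measured subunits of the Mll3/4 complexes, none differed by 2-fold, and 79.9% of all 6683 genes were within 2-fold. Wdr5, a scaffold shared by all COMPASS complexes, came closest, at 32.6 CPM in the control and 17.5 CPM in the Mll3/4-labelled library.

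The ratio of the Mll3/4-labelled to the control library had an SD of 1.78 on the log2 scale over the 6683 genes, around a median of -0.09. It was 2-fold or more higher for 617 genes (9.23%) and 2-fold or more lower for 729 genes (10.9%). It was 16-fold or more higher for 164 genes (2.45%) and 16-fold or more lower for 171 genes (2.56%). Another 2794 genes (41.8%) lay within 1.25-fold. The genes at least 2-fold higher held 11.0% of all UMIs in the Mll3/4-labelled library and 2.05% in the control, and the genes at least 2-fold lower held 1.65% and 6.74%. The extremes were thus similar in number. Grouping by ratio favours a larger share in the library where a group is higher. In that library the share was 11.0% for the higher group and 6.74% for the lower group.

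**Figure D1:**
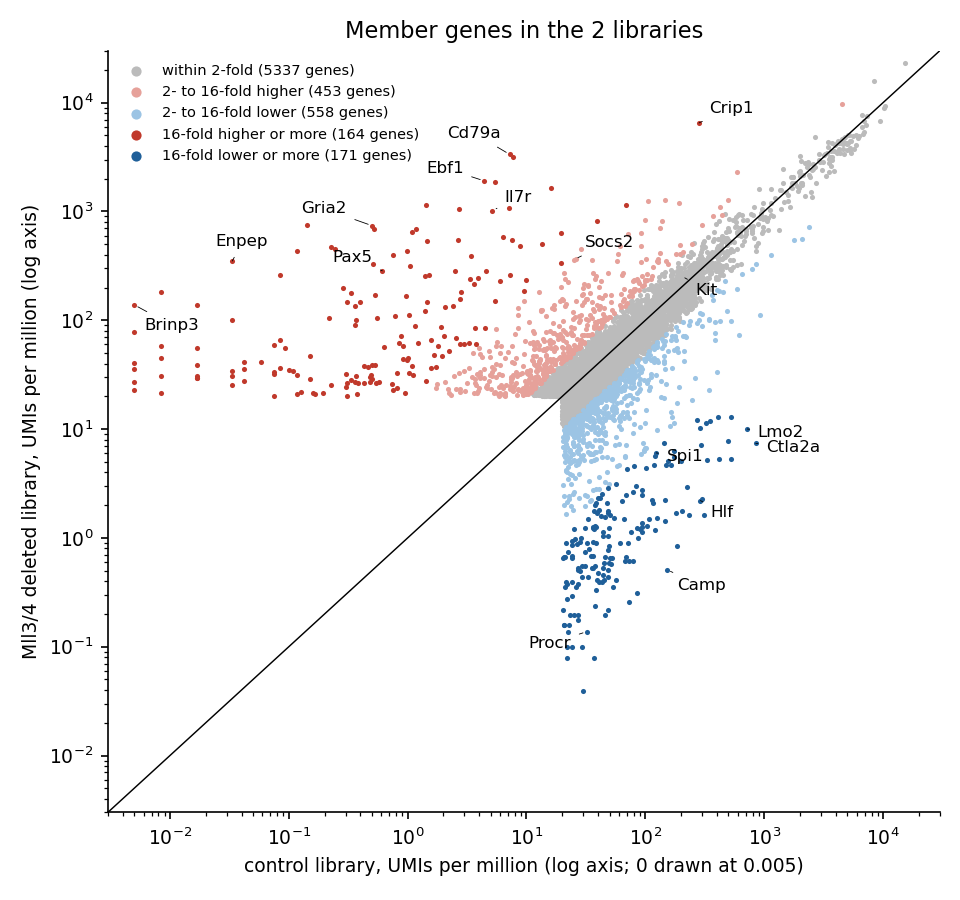
Each point is 1 of the 6683 genes, by its CPM in the control library (x axis) and in the Mll3/4 deleted library (y axis), both on log axes, with the line of equal levels and colours for the size of the ratio. The 164 genes at least 16-fold higher reach control levels below 1 CPM (Ebf1 4.41 to 1911, Enpep 0.0335 to 351), and the 171 genes at least 16-fold lower reach Mll3/4-labelled levels below 1 CPM (Camp 151 to 0.512).

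Promoter sequences are shown for 3 small sets, so that the letters upstream of the genes with extreme ratios can be read beside their values. All are the 250 bases before the annotated start, from RefSeq on GRCm38.p6, read 5′ to 3′ along the gene. The first set is every gene at least 16-fold higher whose upstream window held an EBF1 motif, the letters TCCC and GGGA with any 2 bases between them, which reads the same on both strands. They were Foxo1 at chr3:52268087-52268336 on the plus strand, Sgk1 at chr10:21881934-21882183 on the plus strand, Sdc4 at chr2:164443189-164443438 on the minus strand and Ptpn14 at chr1:189728018-189728267 on the plus strand. Capitals mark the motif, which began 92, 211, 87 and 242 bases before the start in that order.
Foxo1: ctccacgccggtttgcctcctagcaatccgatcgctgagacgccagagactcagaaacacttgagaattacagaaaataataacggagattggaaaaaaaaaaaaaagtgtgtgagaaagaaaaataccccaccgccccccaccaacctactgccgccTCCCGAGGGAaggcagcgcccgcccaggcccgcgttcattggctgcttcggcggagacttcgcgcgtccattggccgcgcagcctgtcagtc
Sgk1: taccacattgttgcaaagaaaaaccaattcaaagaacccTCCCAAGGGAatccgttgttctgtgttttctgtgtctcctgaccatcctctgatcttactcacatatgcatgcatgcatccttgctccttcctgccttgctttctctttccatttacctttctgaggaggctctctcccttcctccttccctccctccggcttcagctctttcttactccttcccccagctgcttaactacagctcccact
Sdc4: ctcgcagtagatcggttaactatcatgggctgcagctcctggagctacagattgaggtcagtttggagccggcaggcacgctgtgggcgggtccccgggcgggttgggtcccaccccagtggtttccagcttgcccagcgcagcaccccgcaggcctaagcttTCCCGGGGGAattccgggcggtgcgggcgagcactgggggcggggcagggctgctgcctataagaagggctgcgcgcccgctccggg
Ptpn14: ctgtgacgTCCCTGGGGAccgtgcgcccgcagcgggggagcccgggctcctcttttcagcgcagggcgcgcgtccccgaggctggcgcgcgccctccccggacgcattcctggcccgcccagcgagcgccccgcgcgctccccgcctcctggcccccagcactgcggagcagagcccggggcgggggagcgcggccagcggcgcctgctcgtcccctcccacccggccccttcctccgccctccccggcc

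The second set is 3 of the pre-B-cell receptor genes with the largest differences in CPM, chosen after their values were seen: Vpreb1 at chr16:16869256-16869505 on the minus strand, Igll1 at chr16:16863986-16864235 on the minus strand and Cd79a at chr7:24897247-24897496 on the plus strand. Capitals mark the E-box CAGGTG, bound by E2A, on either strand, which began 88, 8 and 154 bases before the start.
Vpreb1: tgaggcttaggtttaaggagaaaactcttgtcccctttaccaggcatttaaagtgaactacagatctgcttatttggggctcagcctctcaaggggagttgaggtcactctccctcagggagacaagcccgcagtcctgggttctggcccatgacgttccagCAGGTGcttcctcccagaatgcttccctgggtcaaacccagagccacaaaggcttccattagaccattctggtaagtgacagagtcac
Igll1: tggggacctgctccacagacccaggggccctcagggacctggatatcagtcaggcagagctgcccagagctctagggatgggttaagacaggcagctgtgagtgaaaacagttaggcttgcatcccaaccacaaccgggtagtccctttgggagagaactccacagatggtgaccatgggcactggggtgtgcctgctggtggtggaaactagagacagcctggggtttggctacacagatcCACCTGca
Cd79a: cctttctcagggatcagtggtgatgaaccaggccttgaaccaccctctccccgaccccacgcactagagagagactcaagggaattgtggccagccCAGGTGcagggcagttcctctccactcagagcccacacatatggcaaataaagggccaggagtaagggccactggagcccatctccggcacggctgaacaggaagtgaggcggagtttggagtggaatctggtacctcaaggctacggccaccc

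The third set is 4 of the 32 genes at least 16-fold lower whose window held the PU.1 motif GAGGAAG on either strand, chosen for their known myeloid or megakaryocytic products: Csf3r at chr4:126024409-126024658 on the plus strand, Prtn3 at chr10:79879417-79879666 on the plus strand, Ctsg at chr14:56102575-56102824 on the minus strand and Pf4 at chr5:90772185-90772434 on the plus strand. PU.1 is the product of Spi1. The motif, in capitals, began 86, 95, 216 and 9 bases before the start.
Csf3r: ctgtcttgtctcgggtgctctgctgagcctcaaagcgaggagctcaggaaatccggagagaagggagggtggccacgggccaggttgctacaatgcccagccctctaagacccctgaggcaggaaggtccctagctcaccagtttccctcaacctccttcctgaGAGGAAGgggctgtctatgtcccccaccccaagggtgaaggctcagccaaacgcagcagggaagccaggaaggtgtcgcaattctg
Prtn3: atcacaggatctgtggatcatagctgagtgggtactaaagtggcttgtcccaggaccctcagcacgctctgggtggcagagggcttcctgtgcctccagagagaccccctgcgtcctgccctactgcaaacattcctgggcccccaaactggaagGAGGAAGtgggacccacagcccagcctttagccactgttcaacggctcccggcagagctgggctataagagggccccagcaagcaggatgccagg
Ctsg: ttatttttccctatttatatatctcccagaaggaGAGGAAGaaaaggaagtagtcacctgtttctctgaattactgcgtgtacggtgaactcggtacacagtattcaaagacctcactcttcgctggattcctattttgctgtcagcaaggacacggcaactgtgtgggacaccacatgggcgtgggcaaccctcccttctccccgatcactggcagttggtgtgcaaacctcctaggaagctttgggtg
Pf4: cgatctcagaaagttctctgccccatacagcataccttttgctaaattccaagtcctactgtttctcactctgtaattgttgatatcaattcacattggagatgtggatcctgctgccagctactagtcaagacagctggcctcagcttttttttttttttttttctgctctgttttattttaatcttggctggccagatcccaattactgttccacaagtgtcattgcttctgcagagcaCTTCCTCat

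An upstream window was matched by symbol for 113 of the 164 genes at least 16-fold higher, 126 of the 171 at least 16-fold lower and 2282 of the 2794 within 1.25-fold, and 27025 windows were searched in all. The EBF1 motif was in 3.54% (4 windows), 0 and 0.526% of the 3 groups in that order, and in 0.788% of all windows. PU.1's was in 10.6%, 25.4% and 9.86%, against 10.4% of all. The C/EBP motif TTGCNNAA was in 16.8%, 17.5% and 7.32%, against 9.55% of all, and the GATA motif AGATAA in 7.08%, 12.7% and 4.91%, against 10.3%. The E-box was in 15.9%, 15.1% and 13.7%, against 17.1%, the RUNX motif TGTGGT in 16.8%, 15.9% and 10.3%, against 14.2%, and the PAX5 core GCGTGAC in 1.77%, 0.794% and 4.38%, against 1.88%. Windows of the 3 groups also differed in CpG dinucleotides, with medians of 7, 4 and 18 per window and 6 over all windows. The motifs do not contain one another, and a match is a description of letters.

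Of the 19 B-lineage transcription factors that reached 20 CPM, 12 were at least 2-fold higher, 7 of them at least 16-fold, and none was 2-fold lower. Over all 6683 genes, 9.23% were at least 2-fold higher, 2.45% at least 16-fold higher and 10.9% at least 2-fold lower. Ebf1, the factor that commits progenitors to the B lineage, was at 4.41 CPM in the control and 1911 CPM in the Mll3/4-labelled library, a ratio of 433-fold (398 to 473). Pax5, which holds B-cell identity, was at 0.612 and 285 CPM, a ratio of 466-fold (370.4 to 595). The list's median log2 ratio was 2.06, beside -0.09 over all 6683 genes.

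The other factors of the list differed by varying amounts. Foxo1, which drives Rag and Il7r expression, was at 7.52 and 541 CPM, Lef1 at 0.989 and 436 CPM, and Pou2af1, a B-cell coactivator of octamer factors, at 1.52 and 259 CPM. Id3, an inhibitor of E proteins, was at 1.45 and 532 CPM. The E proteins themselves differed less: Tcf4 was 5.99-fold (5.88 to 6.098) higher, whereas Tcf3, which encodes E2A, was 1.899-fold (1.83 to 1.97) higher and Tcf12 1.72-fold (1.66 to 1.78) higher. Myb, Irf2, Sox4 and Mef2c lay within 2-fold. Factors of later B-cell stages did not reach 20 CPM: Ikzf3 was at 0.0788, Spib at 1.38, Irf4 at 8.45 and Bcl6 at 0.807 CPM in the Mll3/4-labelled library.

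Among 18 genes of the pre-B-cell receptor and its signalling, 11 were at least 2-fold higher and 3 at least 2-fold lower, with a median log2 ratio of 2.39. The shares over all 6683 genes were 9.23% higher and 10.9% lower. Vpreb1 and Igll1 encode the surrogate light chain. Vpreb1 was at 7.74 and 3140.4 CPM, a ratio of 406-fold (380.2 to 433), and Igll1 at 2.72 and 1045 CPM, a ratio of 384-fold (344 to 429). Vpreb2, which is close in sequence to Vpreb1, was at 1.21 and 0.6103 CPM, and reads of this pair may have been split between them. Cd79a, a signalling chain of the receptor, was at 7.24 and 3339.5 CPM, a ratio of 461-fold (431 to 494). Its partner Cd79b was already at 28.8 CPM in the control and was 15.5-fold (15 to 16.1) higher.

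Downstream of the receptor the picture was divided. The adaptor Blnk was at 2.66 and 552 CPM and the scaffold Bank1 at 1.16 and 89.6 CPM. The kinase Btk, however, was at 47.8 CPM in the control and 2.09 CPM in the Mll3/4-labelled library, 22.9-fold (18.9 to 28.02) lower. Plcg2, the phospholipase that BTK activates, was 6.25-fold (5.72 to 6.86) lower, and the phosphatase Ptpn6 15.1-fold (13.6 to 16.9) lower. Syk and Lyn were lower by less than 2-fold, Fyn was 2.38-fold (2.28 to 2.49) higher, and Blk and Cd22 were each below 1 CPM in both libraries. Zap70, the T-cell relative of Syk, was named after its values were seen: it was at 0.285 CPM in the control and 198 CPM in the Mll3/4-labelled library, where 79.8% of cells had a UMI.

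Of 9 recombination and repair genes, 4 were at least 2-fold higher and none 2-fold lower, beside 9.23% and 10.9% of all 6683 genes. Rag1 was at 0.746 and 399 CPM, Rag2 at 1.47 and 147 CPM, and Dntt, which adds untemplated bases at V(D)J joints, at 106 and 1254 CPM. Lig4, the ligase of end joining, was 10.7-fold (9.37 to 12.3) higher. The general repair genes Xrcc4, Xrcc5, Xrcc6, Prkdc and Atm lay within 2-fold.

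Lymphoid priming genes went both ways: of 13, 5 were at least 2-fold higher and 6 at least 2-fold lower. Over all 6683 genes the shares were 9.23% and 10.9%. The list's median log2 ratio was -0.73, which was 5.93 over the members at 100 CPM or more. Il7r, the receptor chain for the main growth factor of early B cells, was at 5.16 and 1019.7 CPM, a ratio of 198-fold (182 to 214). Ly6d, a mark of B-biased common lymphoid progenitors, was at 13.4 and 498 CPM. The lower genes included Flt3, Notch1, Cd27, Lsp1 and Bcl2. Flt3, a cytokine receptor of lymphoid-primed progenitors, was at 64.01 and 23.5 CPM, and Notch1 at 22.6 and 2.28 CPM.

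**Figure D2:**
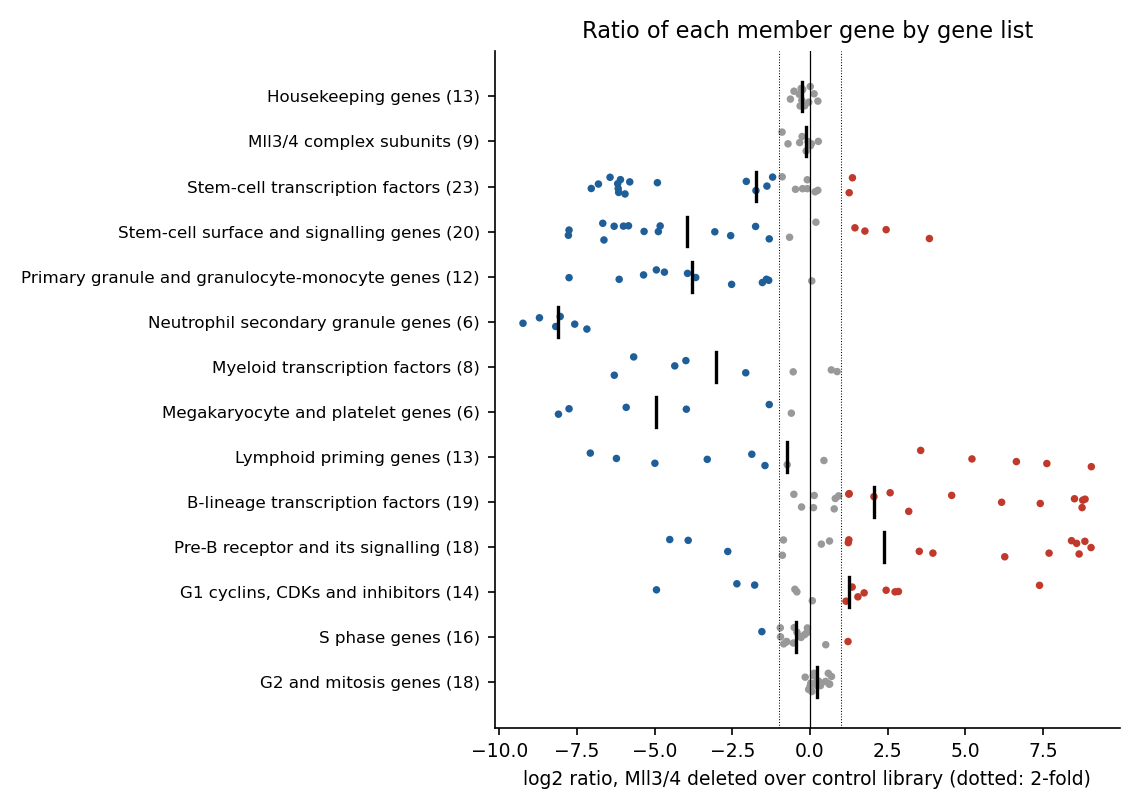
Each point is a member gene by its log2 ratio of the Mll3/4 deleted over the control library (x axis), in rows by gene list with the number of members in parentheses; bars are medians, red points are at least 2-fold higher and blue points at least 2-fold lower. Housekeeping and G2 and mitosis genes stay within 2-fold, neutrophil granule genes lie at a median of -8.11, and lymphoid priming genes split with 5 of 13 higher and 6 lower.

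Of 12 B-cell stage markers, 3 were at least 2-fold higher and 6 at least 2-fold lower, beside 9.23% and 10.9% of all 6683 genes. Enpep, which encodes the pre-B-cell surface enzyme BP-1, had 4 UMIs in the control and 17812 in the Mll3/4-labelled library, a ratio of 10462-fold (4085 to 38400.1). Cd24a was at 100.5 and 366 CPM. Messages of later or other stages were near 0 in the Mll3/4-labelled library: Il2ra was at 0, Ms4a1, which encodes CD20, at 0.0788, and Cd40 at 0.0197 CPM. Cd93, an early B-lineage and progenitor marker, was at 93.6 CPM in the control and 2.46 CPM in the Mll3/4-labelled library.

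A few barcodes held most of the counts of the immunoglobulin chains. Igkc, the kappa light chain constant region, was at 2078 and 562 CPM, and 20 cells held 77.2% of its UMIs in the control and 97.8% in the Mll3/4-labelled library. Without those cells it was at 475 and 12.6 CPM. Jchain was similarly held, with 71.3% and 99.3% of its UMIs in 20 cells. Ighm, the mu heavy chain, was held by few cells in the control, where 20 had 71.2% of its UMIs, but not in the Mll3/4-labelled library, where 20 had 13.9%. It had a UMI in 31% of control and 97.8% of Mll3/4-labelled cells. Its sum was 1.55-fold (1.53 to 1.57) higher over all cells and 4.65-fold (4.57 to 4.73) higher without those 20 cells of each library.

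Immunoglobulin heavy chain V segments on chromosome 12 were summed as 1 block. The 185 segments came to 9.48 CPM in the control and 3004 CPM in the Mll3/4-labelled library, with 9.64 and 48.2 CPM in the libraries of the Mll3 and Mll4 single deletions. Of the 19 segments that reached 20 CPM, 18 belonged to the Ighv1 family, which held 95.5% of the V UMIs of the Mll3/4-labelled library. They lay 0.572 to 2.53 Mb from Ighm. Ighv1-66 led, at 0.142 and 755 CPM, followed by Ighv1-23, at 0.117 and 435 CPM. Segments are close copies of each other, so the split among them is uncertain, and the segments were named after their values were seen.

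V messages were spread over nearly all cells and over many segments within a cell. A V UMI was found in 99.6% of Mll3/4-labelled cells, with a median of 28 V UMIs per cell, and in 4.37% of control cells. Among the 4670 Mll3/4-labelled cells with at least 5 V UMIs, the median number of different segments was 11, from 6 at the 10th percentile to 17 at the 90th, and the leading segment held a median of 29.4% of a cell's V UMIs. In only 3 of those cells did all V UMIs come from 1 segment. The 38 control cells with as many V UMIs had a median of 1 segment, and 25 of them held 1 segment alone.

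**Figure D3:**
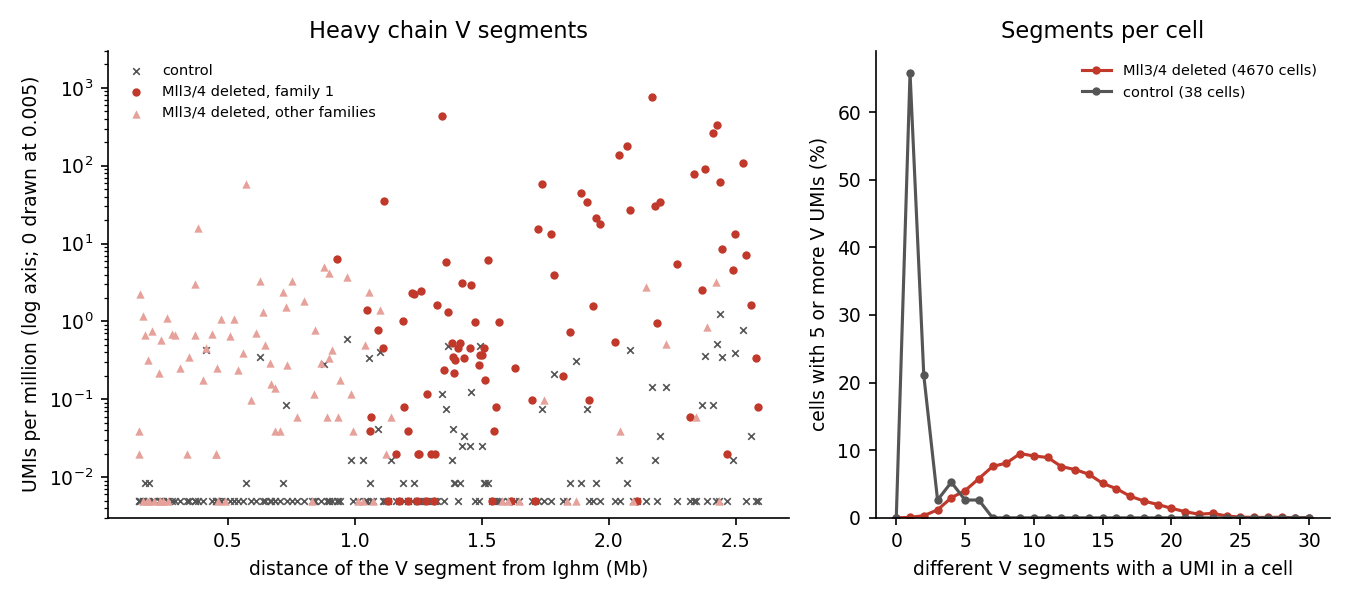
Left, CPM (log axis) of 185 heavy chain V segments by their distance from Ighm in Mb, with crosses for the control and filled symbols for the Mll3/4 deleted library; right, the share of cells with at least 5 V UMIs by the number of different segments in the cell. The Mll3/4-labelled segments of family 1 reach 755 CPM, and its cells carry a median of 11 segments against 1 in the control.

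The rule for naming genes left out immunoglobulin genes, whose V segments also had high log2 ratios, such as 14.2 for Ighv1-72 and 13.8 for Ighv1-63. Among the genes left, those with the highest ratios were mostly not textbook B-cell genes. Brinp3 had 0 UMIs in the control and 7048 in the Mll3/4-labelled library, at least 5519-fold higher when the control is set to a floor of 3 UMIs; the exact interval of the ratio begins at 4487. Ntn1, which encodes the guidance molecule netrin-1, had 4 and 5107 UMIs, a ratio of 2999.5-fold (1171 to 11013). Adgrf1, an adhesion G-protein-coupled receptor, had 2 and 2808 UMIs, a ratio of 3298-fold (912 to 27249.8).

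Prlr, the prolactin receptor, was at 0.243 and 455 CPM. Gria2, a subunit of AMPA-type glutamate receptors, was at 0.503 and 740.0 CPM, and 93.3% of Mll3/4-labelled cells had a UMI. Ly6c1 was at 0.5196 and 688 CPM, while its near copy Ly6c2 went the other way, at 22.5 and 3.48 CPM, and reads can be split between them. Rnase10 was at 0.226 and 473 CPM, Rnase12 at 1.42 and 1140.0 CPM, and Flrt2 at 0.0838 and 65.8 CPM. None of the 10 reached 10 CPM in any of the other 3 libraries.

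The 10 largest differences upward in CPM included abundant genes too. Malat1, a nuclear non-coding RNA, was at 8455 and 15922 CPM, 1.88-fold (1.88 to 1.89) higher. Crip1, a small LIM-domain protein, was at 283 and 6515 CPM, 23.03-fold (22.8 to 23.3) higher. Mzb1, a chaperone of immunoglobulin assembly, was at 16.1 and 1644 CPM, and Vpreb3 at 5.43 and 1859 CPM. Tmsb10, Hist1h2ap and Hmgb1 were 3.87-fold (3.84 to 3.91), 1.82-fold (1.81 to 1.83) and 1.62-fold (1.61 to 1.63) higher.

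In the stem cell lists most members were lower. Of 23 stem cell transcription factors, 14 were at least 2-fold lower and 2 at least 2-fold higher, with a median log2 ratio of -1.74. The shares over all 6683 genes were 10.9% lower and 9.23% higher. Hlf, a regulator of stem cell quiescence, was at 291 and 2.21 CPM, 132-fold (109.5 to 160.1) lower. Mecom was at 87.5 and 1.004 CPM, Gata2 at 85.6 and 1.24 CPM, and Tal1 at 48.1 and 0.768 CPM. Lmo2, the bridging partner of TAL1 and GATA factors, was at 722 and 10.02 CPM. All 5 were near or below 10 CPM in the Mll3/4-labelled library.

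Other stem cell factors were within 2-fold. Hoxa9 was at 78.5 and 73.97 CPM and Hoxa7 at 50.1 and 56.1 CPM, and Runx1 and Fli1 also lay within 2-fold. Meis1, the partner of HOXA9, was 3.33-fold (3.205 to 3.47) lower. Erg, an ETS factor, was 2.401-fold (2.33 to 2.47) higher and Zfp521 2.58-fold (2.38 to 2.803) higher.

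Among 20 stem cell surface and signalling genes, 14 were at least 2-fold lower and 4 at least 2-fold higher. Over all 6683 genes the shares were 10.9% and 9.23%. Procr, which encodes CD201, was at 32.3 and 0.138 CPM, 234-fold (114 to 583) lower. Cd34, a surface mark of progenitors, was at 332 and 5.18 CPM. The exceptions included Socs2, a feedback inhibitor of cytokine signalling, at 25.2 and 362 CPM, and its relative Cish, at 12.9 and 43.98 CPM. Cdkn1a was at 7.57 and 41.4 CPM.

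Myeloid genes were lower in nearly every case. Of 12 primary granule and granulocyte-monocyte genes, 11 were at least 2-fold lower, beside 10.9% of all 6683 genes, and Anxa1 was within 2-fold. Prtn3, a granule protease, was at 526 and 12.9 CPM, 40.9-fold (37.9 to 44.2) lower, and had a UMI in 92.7% of control cells and 0.527% of Mll3/4-labelled cells. Mpo, myeloperoxidase, was at 174 and 11.3 CPM. In the Mll3/4-labelled library the 494 UMIs of Elane came from 4 cells, so the low sums rested on few barcodes. All 6 neutrophil secondary granule genes were at least 16-fold lower, beside 2.56% of all 6683 genes. Camp was at 151 and 0.512 CPM, Ngp at 85.2 and 0.315 CPM, and Lcn2 at 36.9 and 0.0788 CPM. In the control, 20 cells held 98.6% of the Camp UMIs and 97.1% of those of S100a9, so these ratios rested on few control cells.

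Of 8 myeloid transcription factors, 5 were at least 2-fold lower and none was 2-fold higher, beside 10.9% and 9.23% of all 6683 genes. Spi1, which encodes PU.1, was at 123 and 6.04 CPM, 20.4-fold (18.2 to 22.9) lower. Nfe2 was at 114 and 2.22 CPM, Runx2 at 71.9 and 0.906 CPM, and Cebpb at 49.6 and 3.11 CPM. Cebpg and Egr1 were higher by less than 2-fold. Cebpa did not reach the minimum, at 14.7 and 0.413 CPM.

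Megakaryocyte and erythroid genes were likewise lower. Their counts are to be read beside the 10.9% of all 6683 genes at least 2-fold lower. Of 6 megakaryocyte genes 5 were at least 2-fold lower, among them Pf4, platelet factor 4, at 72.5 and 0.256 CPM and Itga2b, the platelet integrin, at 24.3 and 0.394 CPM. Of 3 erythroid genes 2 were at least 2-fold lower, Car2 and Zfpm1. Haemoglobin went the other way, with Hba-a1 at 0.989 and 42.9 CPM, but it had a UMI in 1.201% of Mll3/4-labelled and 1.28% of control cells. Mast cell and basophil genes reached 20 CPM in neither library.

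The remaining genes with the lowest ratios spanned several cell types. Nkg7, a granule membrane protein, was at 184 and 0.847 CPM, 218-fold (162 to 301) lower, and Rab37, a vesicle GTPase, at 53.2 and 0.354 CPM. Myl10, a myosin light chain, was at 298 and 2.28 CPM. Ctla2a, a cathepsin inhibitor with a near copy, Ctla2b, was at 849 and 7.403 CPM, and had a UMI in 97.5% and 0.948% of cells. Gpx1, a glutathione peroxidase, had the largest fold among the 10 largest differences downward after Ctla2a, at 916 and 112 CPM. H2afy, a histone variant, was 3.25-fold (3.21 to 3.29) lower and Fth1, the ferritin heavy chain, 3.28-fold (3.24 to 3.31) lower.

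To compare cells at 1 depth, each was thinned to 3000 UMIs, which left out 14 control and 33 Mll3/4-labelled cells. Ebf1 then had a UMI in 97.4% of Mll3/4-labelled and 0.303% of control cells, Cd79a in 99.3% and 0.537%, and Gria2 in 79.3% and 0.1102%. Hlf had one in 0.148% of Mll3/4-labelled and 53.1% of control cells, and Nkg7 in 0.0424% and 33.9%. Without thinning the shares were 99.4% and 0.564% for Ebf1, 99.6% and 0.8798% for Cd79a, 93.3% and 0.316% for Gria2, 0.442% and 87.3% for Hlf, and 0.253% and 68.9% for Nkg7. Thus the B-lineage messages were near universal in 1 library and rare in the other, while the stem cell messages were near absent from the first.

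B-lineage messages were also counted in 17 cells of the Mll3/4-labelled library with 10 or more UMIs of Prtn3. This granulocyte-monocyte marker was chosen after its values were seen. Whether B-lineage UMIs in these 17 cells came from free RNA, from doublets or from the cells themselves was not tested. At a median of 28335 UMIs per cell, 35.3% of these cells (14.2% to 61.7%) had a UMI of Cd79a, 17.6% one of Vpreb1, 5.88% one of Ebf1 and 29.4% one of a V segment. The other 4731 cells, at a median of 8908 UMIs, had one in 99.8%, 99.5%, 99.7% and 99.8%. Of the 17 cells, 1 held 36 Cd79a UMIs and the rest at most 2, while the median of the other cells was 32. Detection in the same cell was also counted. At least 4 of Ebf1, Pax5, Cd79a, Vpreb1, Rag1 and Il7r had a UMI in 99.3% of Mll3/4-labelled and 0.289% of control cells. All 6 did so in 70.0% and 0.179%. In the Mll3/4-labelled library high joint shares follow from the single ones, such as 82.9% for Pax5 and 87.1% for Rag1. Whether the genes occurred together beyond that was not tested.

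**Figure D4:**
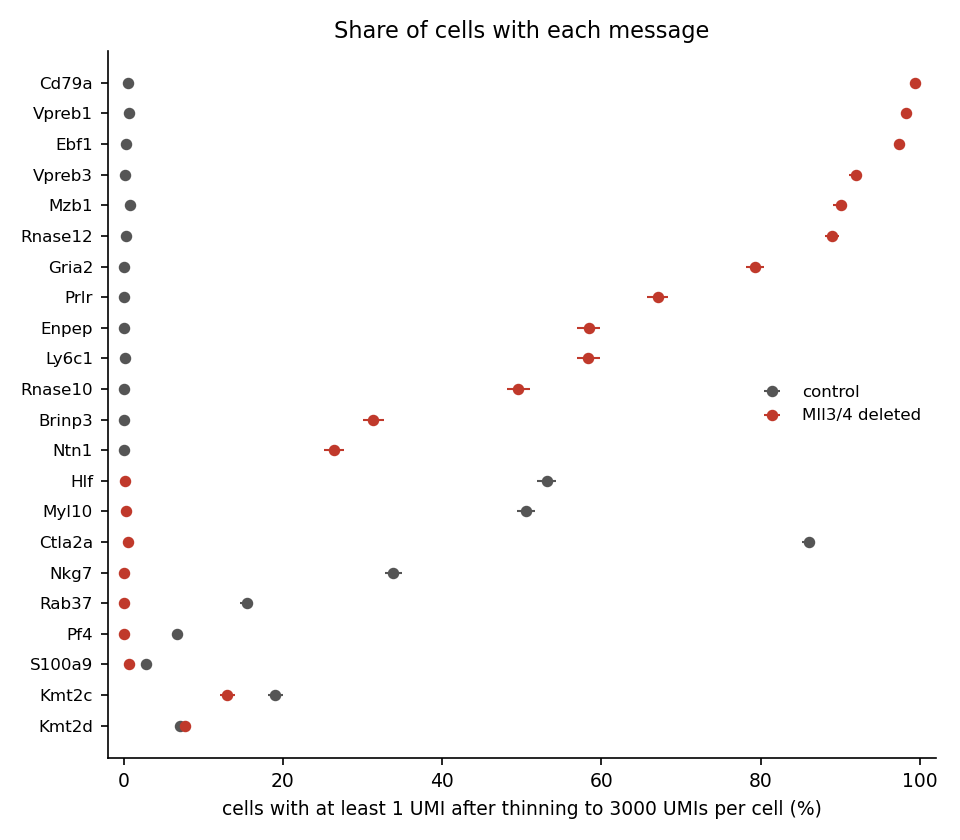
Share of cells with at least 1 UMI of each gene after every cell was thinned to 3000 UMIs (x axis, percent), for the control and the Mll3/4 deleted library, with 95% Clopper-Pearson intervals. Cd79a is at 99.3% and Brinp3 at 31.4% of Mll3/4-labelled cells, against 0.537% and 0 of control cells, while Kmt2d is at 7.66% and 7.08%.

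The cells also fell into different antibody gates. By antibody counts, the HSC gate (CD150+CD48-CD135-) held 23.7% of control and 4.53% of Mll3/4-labelled cells, MPP3 (CD150-CD48+CD135-) 44.3% and 9.81%, MPP4 (CD150-CD135+) 12.1% and 42.9%, and the CD150+CD135+ gate 1.73% and 37.2%. The gates rest on centred log ratios over 6 antibodies, so a fall in 1 antibody's counts raises the values of the others. Flt3, the message of CD135, was lower, at 64.01 and 23.5 CPM, as was Slamf1, that of CD150, at 8.39 and 1.71 CPM. Whether the gate shares reflect surface protein was not tested. Ebf1, Cd79a and Hlf were compared within gates. In the HSC gate Ebf1 had 0 UMIs in 1725 control cells and 4128 in 215 Mll3/4-labelled cells, Cd79a was at 0.779 and 3582 CPM, and Hlf at 352 and 15.9 CPM. In the MPP4 gate Ebf1 was at 16.2 and 1798 CPM, and Hlf had 3239 and 0 UMIs. Some other genes had smaller ratios within a gate than over the whole libraries: in the HSC gate Camp was at 1.73 and 1.403 CPM, from 40 and 3 UMIs, and Flt3 at 10.1 and 7.49 CPM.

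Counts of cell-cycle genes differed by phase. Of all 6683 genes, 9.23% were at least 2-fold higher, 10.9% at least 2-fold lower and 79.9% within 2-fold. All 18 G2 and mitosis genes lay within 2-fold, among them Mki67 at 399.8 and 462 CPM and Top2a at 477 and 523 CPM. Of 16 S phase genes, Rrm2 was 2.34-fold (2.25 to 2.43) higher and Ung 2.92-fold (2.71 to 3.15) lower, and the other 14 were within 2-fold. The S phase median log2 ratio was -0.46, but it changed sign to 0.25 in cells with 5000 to 15000 UMIs. Of 14 genes of the G1 phase, 8 were at least 2-fold higher and 3 at least 2-fold lower. The D-type cyclins differed in direction: Ccnd1 was at 50.4 and 1.63 CPM, Ccnd2 at 213 and 41.9 CPM, and Ccnd3, the D-type cyclin of pre-B cells, at 93.2 and 208 CPM.

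Several inhibitors of cyclin-dependent kinases were higher. Cdkn2c was at 38.4 and 257 CPM, Cdkn1b at 79.5 and 232 CPM, and Cdkn2a at 0.126 and 21.8 CPM. Cdk6 was 3.43-fold (3.32 to 3.54) lower. Of 8 measured p53 target genes 4 were at least 2-fold higher and none 2-fold lower, beside 9.23% and 10.9% of all 6683 genes. Phlda3 was at 4.37 and 35.7 CPM and Zmat3 at 2.53 and 23.4 CPM. In the Bcl2 family, Bcl2 was 3.66-fold (3.43 to 3.902) lower, whereas Bcl2l1, which encodes Bcl-xL, was 6.67-fold (6.24 to 7.14) higher, Bcl2l11, which encodes Bim, 2.88-fold (2.68 to 3.09) higher and Bmf 90.6-fold (72.03 to 116) higher. Mcl1 was at 139 and 139.8 CPM.

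Among chromatin genes most were within 2-fold, as were 79.9% of all 6683 genes. Of 16 enhancer cofactors and Polycomb genes, 14 were within 2-fold. Smarca4, the ATPase of BAF remodelling complexes, was at 129 and 341 CPM, 2.65-fold (2.596 to 2.71) higher. Dnmt3b, a DNA methyltransferase, was at 41.1 and 6.26 CPM, 6.57-fold (5.87 to 7.38) lower. None of the 6 other H3K4 methyltransferase genes and partners differed by 2-fold, though Men1 came close, 1.98-fold (1.87 to 2.09) higher. Of 13 housekeeping genes none differed by 2-fold, and their median log2 ratio was -0.26.

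Some of the genes with extreme ratios were neighbours. Of the 164 genes at least 16-fold higher, 53 lay in 17 runs of adjacent genes with gaps of at most 100 kb, and 37 in 15 runs once runs of V segments were set aside. On chromosome 1 one run held Ifi206, Ifi214, Ifi213, Ifi209 and Ifi208, interferon-inducible genes, with Ifi208 at 0.394 and 148 CPM. On chromosome 14 another held Pnp2, Rnase10, Rnase12, Rnase4 and Ang, with Rnase4 at 1.39 and 257 CPM and Ang at 1.92 and 85.96 CPM. On chromosome 16 Igll1 and Vpreb1, shown above, formed a run, and on chromosome 2 Rag2 and Rag1. Near copies in these clusters may share reads. Of the 171 genes at least 16-fold lower, 31 lay in 14 runs, among them Tal1 with Pdzk1ip1 and Spns2 with Spns3, the latter at 68 and 0.6103 CPM and 40.8 and 0.394 CPM. Runs were not set against a chance expectation.

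The single-deletion libraries place these values. The Mll3/4-labelled level was at least 16-fold above the highest of the other 3 libraries for 121 genes (1.81%) and at least 16-fold below the lowest for 129 (1.93%). In the Mll3-labelled library, where Cd79a was at 74.3 CPM, Vpreb1 was at 72.9, Pax5 at 6.52 and Ebf1 at 35.4 CPM. By contrast Enpep was at 0.3399, Prlr at 0.406, Gria2 at 1.44 and Ly6c1 at 1.03 CPM there. The Mll4-labelled library had the neutrophil genes at higher levels than the control, with S100a9 at 2382 CPM. Myl10 and Rab37, among the genes with the lowest ratios, were below the control there too: Myl10 was at 61.9 CPM against 298 in the control and 166 in the Mll3-labelled library, and Rab37 at 13.3 CPM against 53.2 and 45.3 CPM.

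**Figure D5:**
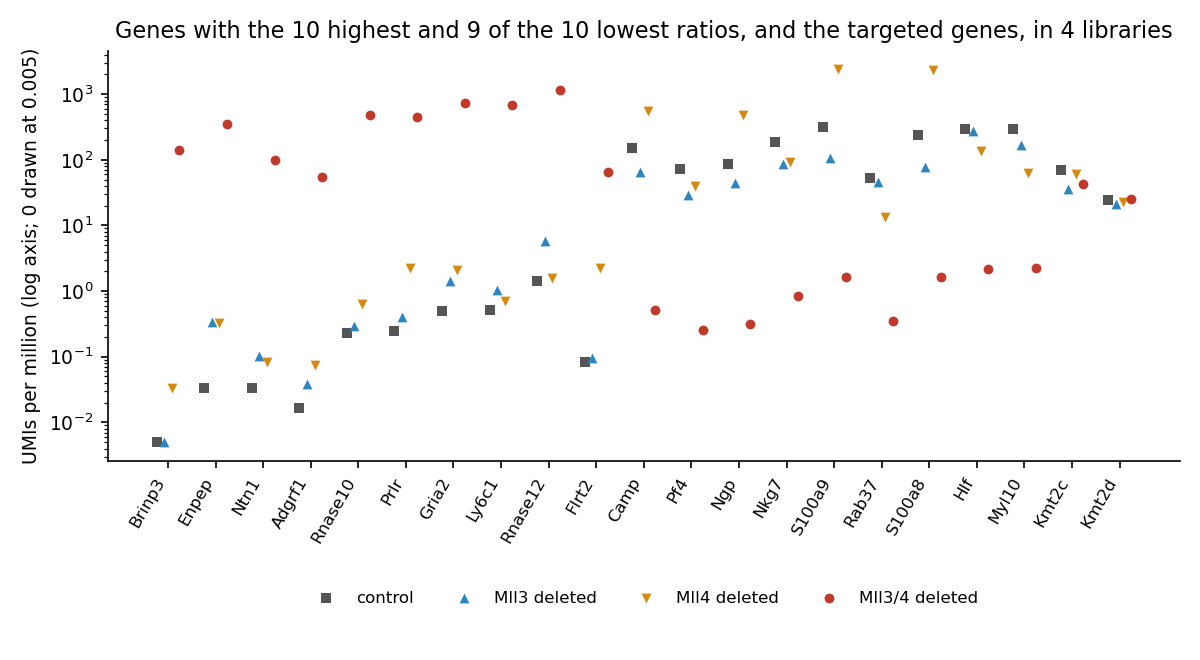
CPM (log axis) in the 4 libraries for the 10 genes with the highest and 9 of the 10 genes with the lowest ratios by rule, and for Kmt2c and Kmt2d. For the 19 plotted genes with extreme ratios the Mll3/4-labelled circle lies apart from all 3 other symbols, as with Hlf at 2.21 against 291, 271 and 136 CPM, while Kmt2d lies between 21.6 and 25.4 CPM in all 4.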

How the data were processed

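The authors deposited raw UMI counts per cell barcode and gene, and antibody tag counts, as sparse matrices. Per the submitters' processing notes, Cell Ranger 6.1.1 and the mm10 build were used; per the labels' protocols, the chemistry was 10x 3′. Cell barcodes were kept if 1000 genes or more were detected and mitochondrial UMIs made up no more than 10%, which gave 7274 control and 4748 Mll3/4-labelled cells, and UMIs were summed per library. The rule did not remove doublets. Ratios were taken as log2 after adding 0.5 UMIs, and folds from counts without it. Intervals (95%) were conditional exact for ratios and Clopper-Pearson for shares. They do not cover differences between animals, and PCR duplicates are collapsed by the UMIs.

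Genes were named by rule, from those with at least 50 CPM and leaving out mitochondrial, ribosomal protein, haemoglobin, immunoglobulin, T-cell receptor, sex-linked and unnamed genes: the 10 highest and 10 lowest ratios, the 10 largest rises and falls in CPM, and, from 37 lists, the 2 highest and 2 lowest members, all members of lists of at most 12 genes, and Kmt2c and Kmt2d. Other genes given with values, such as Zap70, haemoglobin, V segments, neighbours and further list members, were chosen after their values were seen. Some genes that the rule names are not reported here. The members and lists were chosen with earlier results of these data known. Coordinates are GENCODE release genes on GRCm38, found for 32158 of the 32285 identifiers. Gates used 1 threshold per antibody, the crossing of a 2-part Gaussian mixture on centred log ratios. Ratios were tested on simulated data. Alternatives were scaling (TMM from edgeR 4.0.16, median of ratios, totals without mitochondrial and ribosomal protein genes), CPM minimums, cell filters, cell weights, depth, doublet scores (scanpy 1.11.5) and gates. Analyses used Python 3.11.15, scipy 1.17.1 and scikit-learn 1.9.0.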

Additional observations from a re-analysis of the deposited data

How the results depend on the processing

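No paired analysis was possible because each genotype had 1 library, and leaving out a library was not possible either. The count of genes depended on the expression minimum. Genes at least 2-fold higher numbered 1078 at 5 CPM, 207 at 100 CPM and 4194 with no minimum, against 617; those at least 2-fold lower 1436, 149 and 4668, against 729; those at least 16-fold higher 280, 69 and 947, against 164; and those at least 16-fold lower 369, 41 and 905, against 171, and 105 in MPP3 gate cells only. Under all other alternatives these counts stayed within 1.5 times. Totals without mitochondrial and ribosomal protein genes made 39.5% of the 2-fold genes higher ones, against 45.8%, and a minimum of 100 CPM 58.1%.

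The SD of the log2 ratios, 1.78, was 1.79 with TMM and with median-of-ratios scaling, 1.80 without mitochondrial and ribosomal protein genes, 1.93, 2.07 and 2.24 at 5, 100 and no minimum CPM, 1.74 with the stricter cell filter, 1.91 with equal weight per cell, 2.09 in cells with 5000 to 15000 UMIs, 1.88 in the MPP4 gate and 1.67 in the MPP3 gate. All 32 of the extreme, largest-change and targeted genes with a ratio of 2-fold or more kept their direction and that size under all 14 alternatives. The 16 list medians of that size gave 224 values under the 14 alternatives, of which 221 kept their direction and 202 also that size. The 3 reversed ones were the T, NK and innate lymphoid list, at -1.49 with a minimum of 5 CPM and -3.05 with none, where it rests on 2 genes otherwise, and the homing and adhesion list, at 0.40 with a minimum of 100 CPM. A changed minimum alters only which genes enter a list and leaves each gene's ratio as it was. The lymphoid priming median, -0.73, was 5.93 at 100 CPM. Among the medians that kept their direction but came under 1 in size, the megakaryocyte list's, -4.94, was -0.57 in the MPP4 gate and -0.60 at 100 CPM, and the G1 list's, 1.26, was 0.34 at 100 CPM, 0.61 with equal weight per cell and 0.72 in cells with 5000 to 15000 UMIs. The p53 target median, 1.58, was 0.87 to 0.96 under 6 alternatives, the homing list's, -1.01, lay between -0.998 and -0.0045 under 7, and the T, NK and innate lymphoid list's, 2.53, was 0.84 in the MPP4 gate. Chosen after seeing the data, leaving out the 20 cells with most UMIs of a gene moved the log2 ratio of Ighm from 0.63 to 2.22, of Igkc from -1.89 to -5.24 and of Jchain from -1.73 to -7.15. Scrublet's own threshold called 1 control and no Mll3/4-labelled cell, so the caller did not work, and the 423 and 180 highest scores were removed instead. Depth limits what is said of genes below 1 CPM in either library.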

Other observations

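Metabolic and stress genes gave smaller counts, to be read beside the 9.23% of all 6683 genes at least 2-fold higher and the 10.9% at least 2-fold lower. Of 14 glycolysis genes, 5 were at least 2-fold lower and 1 at least 2-fold higher in the Mll3/4-labelled library, with a median log2 ratio of -0.71 beside -0.09 over all 6683 genes. Slc2a3, a glucose transporter, was at 35.3 CPM in the control and 7.03 CPM in the Mll3/4-labelled library, and Tpi1 at 285 and 101 CPM. The lactate transporter Slc16a1 was the higher gene, at 25.9 and 54.7 CPM. Of 14 antioxidant genes, 4 were at least 2-fold lower, among them Gclm, a subunit of glutathione synthesis, at 173 and 53.9 CPM, and 2 were at least 2-fold higher, Prdx4 at 103 and 235 CPM and Gstp1 at 114 and 255 CPM. Of 6 cholesterol synthesis genes measured, 2 were at least 2-fold lower, and Srebf2, their regulator, was at 68.01 and 25.2 CPM. Of 11 chaperone genes none differed by 2-fold, with Hspa5 closest on the higher side, at 257 and 513 CPM.

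Antigen presentation genes differed within 1 pathway. H2-Aa was at 80.8 and 4.61 CPM, H2-Eb1 at 60.03 and 4.71 CPM, and the invariant chain Cd74 at 165 and 14.5 CPM, whereas H2-Ab1, the beta chain paired with H2-Aa, was at 122 and 139 CPM. H2-Ab1 had a UMI in 59.9% of Mll3/4-labelled cells, with 5.07% of its UMIs in 20 cells, while H2-Aa had one in 1.24% of them. The class I genes H2-K1, H2-D1 and B2m lay within 2-fold. Of 8 interferon response genes 1 was at least 2-fold higher and 2 at least 2-fold lower, beside 9.23% and 10.9% of all 6683 genes.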
